A study of Mus musculus with 12 samples.

Results

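The 41 genes described here act in mitosis and on the spindle and were listed by gene symbol, with earlier results of these data known. A member was taken as measured where a probe set (a group of short oligonucleotides read as 1 signal) carried that gene symbol and no other in the platform annotation, and the probe set with the highest mean log2(signal + 16) over all arrays stood for the gene. This gave 39 measured members among 12393 genes. Ccnb1 and Espl1 had no such probe set and are not analysed here. A single probe set existed for 19 members and several for 20. The representing probe set had a name ending in _x_at for Aurkb, Cdc20, Incenp, Kif22, Kif2c and Ncaph and in _s_at for Plk4, Bub3, Pttg1 and Prc1. These endings mark probes that can also bind other transcripts, so the signals of these 10 genes are less certain.

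RNA came from BW5147, an established mouse thymic T lymphoma cell line, kept for 8 h under 6 conditions with 2 arrays each, numbered 1 and 2 in the labels. The cells received 100 ng/ml dexamethasone (Dex, a synthetic glucocorticoid) with 100 U/ml interleukin-9 (Dex+IL-9), Dex with 100 U/ml of the chemokine CCL1 (Dex+CCL1), Dex alone, IL-9 alone, CCL1 alone, or nothing (unstimulated). All groups shared the line and its medium with fetal calf serum. The labels do not say whether the arrays of a group came from separate cultures, so p-values measure the spread between arrays, which may be technical. Less RNA per cell and fewer cells in mitosis cannot be told apart in such bulk samples.

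Mitosis is driven by Cdk1 bound to its cyclins. CDC25 phosphatases activate Cdk1, and the cyclins are destroyed through the anaphase-promoting complex once every kinetochore is attached to the spindle. The spindle checkpoint holds that complex back until attachment is complete. Most of these genes are transcribed late in the cell cycle, through promoter elements bound by the DREAM and MuvB complexes and by NF-Y, so in a dividing lymphoma line their mRNAs are usually abundant. Glucocorticoids are known to arrest and kill many thymic lymphoma lines, and IL-9 is known to protect BW5147 cells from this death.

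Several arrays stood apart from their labels or partners. Tsc22d3, a gene that glucocorticoids induce in lymphocytes, had signals of 229.9 and 58.7 in the arrays labelled IL-9, 329.9 and 70.8 in those labelled CCL1 and 347 and 109 in those labelled unstimulated. In the 6 arrays with Dex it lay between 259.9 and 422. The arrays numbered 1 without Dex in their label therefore held this target near the Dex level, and Dex was also compared within the arrays numbered 2. The array Dex 2 differed from Dex 1 by a median of 0.258 log2 over all tested probe sets, in either direction, and the pairs of the other groups by 0.168 to 0.213; the array CCL1 2 was run on another array type, comes from a table of its own and was left out of the tests. Among T lymphoid markers 10 of 11 were measured, with a summed signal of 4349 in Dex 2 and 4491 to 5875 in the others. Cd2, Cd5 and Cd247 had highest signals of only 14.4, 7.01 and 9.24. Summed signals of 4 B lymphoid, 5 macrophage and 5 fibroblast markers stayed at 25.4, 54.1 and 30.3 or below in every array.

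The promoters of the members were rich in the elements that the cell cycle complexes are known to bind. Of the 41 genes 34 matched RefSeq promoters of build GRCm38.p6, with 37 windows from 250 bases before to 50 bases after a transcription start. The letters TTTGAA (on either strand, so also TTCAAA), the core of the cell cycle genes homology region, stood in 26 of the 37 windows or 70.3%, against 17.9% of 32851 windows of all genes. CCAAT (or ATTGG), the box bound by NF-Y, stood in 30 or 81.1%, against 37.4% of all. Both stood in 25 or 67.6%, against 6.95% of all. Shown next are the 100 bases before the start for 3 genes that were low in the array Dex 2 and 4 that were not, read 5′ to 3′ along the gene, with both motifs in capitals; no marked sites overlap.

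Top2a, chr11:99024190-99024289, minus strand: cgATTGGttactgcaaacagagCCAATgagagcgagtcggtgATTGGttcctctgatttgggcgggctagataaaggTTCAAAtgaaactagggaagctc

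Kif11, chr19:37376282-37376381, plus strand: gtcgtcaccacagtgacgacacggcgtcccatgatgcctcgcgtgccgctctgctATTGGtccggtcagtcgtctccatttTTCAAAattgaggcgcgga

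Bub1, chr2:127831860-127831959, minus strand: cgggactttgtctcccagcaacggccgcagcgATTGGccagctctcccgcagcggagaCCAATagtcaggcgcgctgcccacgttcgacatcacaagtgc

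Ube2c, chr2:164769829-164769928, plus strand: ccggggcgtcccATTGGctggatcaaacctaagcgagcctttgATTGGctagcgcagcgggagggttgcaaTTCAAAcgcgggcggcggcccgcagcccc

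Cdc20, chr4:118437344-118437443, minus strand: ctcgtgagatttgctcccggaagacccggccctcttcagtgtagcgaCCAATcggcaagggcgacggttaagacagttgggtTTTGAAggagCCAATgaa

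Ccnb2, chr9:70421555-70421654, minus strand: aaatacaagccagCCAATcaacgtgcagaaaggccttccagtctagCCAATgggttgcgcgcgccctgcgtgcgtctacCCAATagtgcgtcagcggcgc

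Cdk1, chr10:69352913-69353012, minus strand: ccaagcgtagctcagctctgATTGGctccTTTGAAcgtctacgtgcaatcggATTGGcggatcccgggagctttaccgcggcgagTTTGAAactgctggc

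TTCAAA began at position -23 in Top2a, -19 in Kif11 and -29 in Ube2c, counted back from the start, and TTTGAA at -18 in Cdc20. The stretch of Ccnb2 held 3 CCAAT boxes and that of Cdk1 held 2 copies of TTTGAA. The stretches of Bub1 and Ccnb2 hold no TTTGAA, which says only that the letters are not in these bases.

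Most members varied little over the 12 arrays. The highest over the lowest signal was above 2-fold in 11 of 39 members, and in 8 without Dex 2. The median of this ratio was 1.60-fold, or 1.51-fold without Dex 2, and the largest was 6.25-fold, in Cenpe. All 39 passed the filter on low signals used for the tests. Values below are deposited signals, 2 arrays per group with number 1 given before number 2, and levels of different genes are not compared.

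**Figure D1:**
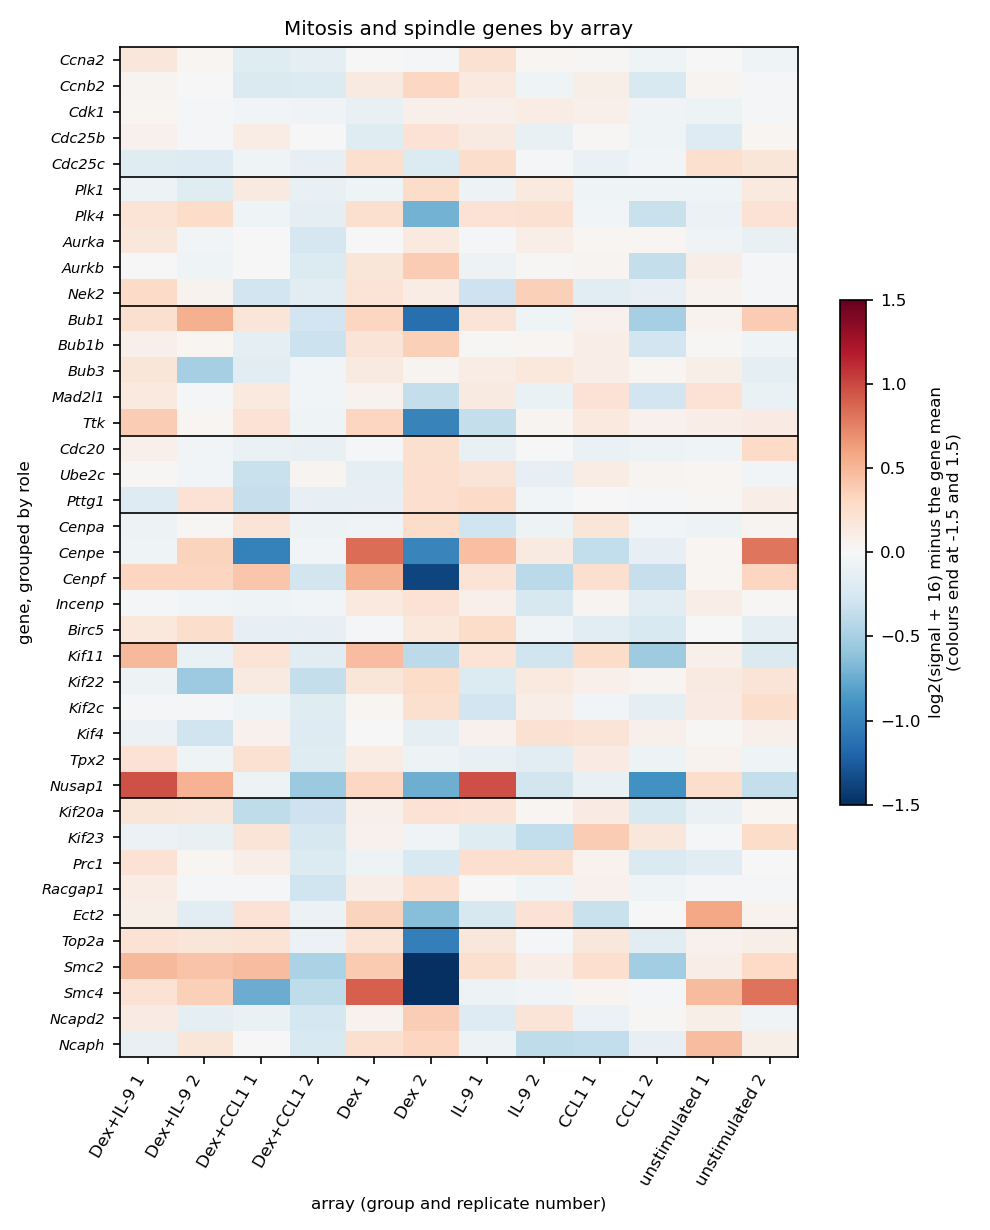
Level of the 39 measured genes in each of the 12 arrays, as log2(signal + 16) minus the mean of the gene over the arrays. Rows are genes ordered by role, with black lines between roles, and colours end at -1.5 and 1.5. Most cells are pale. Dex 2 holds most of the darkest blue cells, in Smc4, Smc2, Cenpf, Bub1, Top2a, Ttk and Cenpe, and Cenpe is as dark in Dex+CCL1 1. Nusap1 is dark red in Dex+IL-9 1 and IL-9 1, and Smc4 and Cenpe are nearly as dark red in Dex 1.

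Cyclins, Cdk1 and its activating phosphatases varied by 1.17- to 1.59-fold over the arrays. Ccna2, the cyclin of S phase and mitotic entry, had signals of 849 and 767 with Dex+IL-9, 664 and 684 with Dex+CCL1, 751.5 and 742 with Dex, 885.5 and 766 with IL-9, 759 and 717 with CCL1 and 747 and 718 in unstimulated cells. Its highest array was IL-9 1 and its lowest Dex+CCL1 1, and the range was 1.33-fold. Cdk1, the kinase that drives entry into mitosis, was the steadiest member by this ratio, with 739 and 707.5 with Dex+IL-9, 705 and 697 with Dex+CCL1, 668 and 765 with Dex, 766 and 785 with IL-9, 764 and 698 with CCL1 and 686 and 714 in unstimulated cells. Ccnb2, a mitotic cyclin, had 523 and 508 with Dex+IL-9, 435 and 440.1 with Dex+CCL1, 559 and 637 with Dex, 564 and 487.6 with IL-9, 540.1 and 434 with CCL1 and 525 and 497 in unstimulated cells. Dex 2 was the highest array for Ccnb2, and both Dex+CCL1 arrays lay below both Dex arrays. Cdc25b and Cdc25c, which remove the inhibitory phosphates of Cdk1, had low signals of 19.8 to 31.6 and 37.0 to 57.1.

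Of the mitotic kinases, Aurka, which builds centrosomes and the bipolar spindle, had 414.5 and 358 with Dex+IL-9, 368 and 306 with Dex+CCL1, 370.4 and 407 with Dex, 362 and 394 with IL-9, 376 and 377 with CCL1 and 353 and 340.1 in unstimulated cells. Dex+IL-9 1 was its highest and Dex+CCL1 2 its lowest array, a range of 1.35-fold. Plk1, a kinase of mitotic entry and cytokinesis, ranged over 194 to 272 with Dex 2 highest, and Aurkb, the kinase of the chromosomal passenger complex, over 154 to 266 with Dex 2 highest. Nek2, which separates centrosomes, ranged over 27.4 to 52.9. Plk4, which starts centriole duplication, stood apart, with 315 and 332 with Dex+IL-9, 259 and 245 with Dex+CCL1, 321 and 159 with Dex, 316 and 319 with IL-9, 262 and 211 with CCL1 and 255 and 317 in unstimulated cells. Dex 2 was its lowest array, and CCL1 2 the next.

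Spindle checkpoint genes stood at both ends in the array Dex 2. Mad2l1, the checkpoint protein Mad2 that binds Cdc20, had 1089 and 966 with Dex+IL-9, 1089 and 954 with Dex+CCL1, 1023.5 and 764 with Dex, 1078 and 914 with IL-9, 1143 and 800.4 with CCL1 and 1140.4 and 918.5 in unstimulated cells. Number 2 lay below number 1 in all 6 groups. Bub1, a checkpoint kinase at kinetochores, had 422 and 521 with Dex+IL-9, 406 and 288 with Dex+CCL1, 449 and 154 with Dex, 408 and 339.9 with IL-9, 371 and 246 with CCL1 and 369.4 and 467 in unstimulated cells. Its signal in Dex 2 was below all others. Bub1b, the BubR1 protein of the inhibitory complex, had 417.6 and 407 with Dex+IL-9, 356 and 315 with Dex+CCL1, 454 and 514.5 with Dex, 401.4 and 404 with IL-9, 426 and 323 with CCL1 and 402 and 379 in unstimulated cells. For Bub1b Dex 2 was the highest array, opposite to Bub1. Ttk, the Mps1 kinase that sets off the checkpoint, had 94.5 and 28.3 with Dex and 53.1 to 98.8 in the arrays other than Dex 2. Bub3, the partner of both Bub proteins, ranged over 652 to 1054.5.

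Anaphase entry genes varied by 1.34- to 1.56-fold. Pttg1, securin, the inhibitor of separase, had 959 and 1275 with Dex+IL-9, 864 and 1007 with Dex+CCL1, 1004 and 1308 with Dex, 1348 and 1065 with IL-9, 1098.5 and 1075 with CCL1 and 1118 and 1177 in unstimulated cells. Number 2 was the higher array in 4 of the 6 groups. Ube2c, the ubiquitin-conjugating enzyme of the anaphase-promoting complex, ranged over 713 to 1080.4, lowest in Dex+CCL1 1 and highest in Dex 2. Cdc20, which activates that complex, ranged over 317 to 424 and was highest in unstimulated 2.

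Among centromere and passenger proteins, Birc5 (survivin, which targets Aurkb to centromeres) had 929 and 999 with Dex+IL-9, 764 and 758 with Dex+CCL1, 821 and 925 with Dex, 1009 and 800.0 with IL-9, 744.5 and 704 with CCL1 and 824 and 748 in unstimulated cells. Cenpa, the centromeric histone H3 variant, ranged over 447 to 676 and Incenp, the scaffold of the passenger complex, over 650.6 to 893, both highest in Dex 2. Cenpf, a large kinetochore protein, had 115 and 19.0 with Dex, and 52.6 to 115 without Dex 2. Cenpe, a kinetochore motor, was dim, with 44.8 and 64.2 with Dex+IL-9, 15.5 and 45.7 with Dex+CCL1, 97.2 and 16.1 with Dex, 70.8 and 53.9 with IL-9, 33.2 and 42.1 with CCL1 and 48.9 and 95.2 in unstimulated cells. Its 2 lowest arrays were Dex+CCL1 1 and Dex 2.

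Among spindle assembly genes Nusap1 varied by 3.90-fold and Kif11 by 2.15-fold. Tpx2, which activates Aurka on microtubules, had 753 and 617 with Dex+IL-9, 761.4 and 568 with Dex+CCL1, 699 and 612 with Dex, 597 and 573.5 with IL-9, 707 and 611 with CCL1 and 669.5 and 616 in unstimulated cells, a range of 1.34-fold. Nusap1, a microtubule-bundling protein, had 712 and 525 with Dex+IL-9, 340.1 and 239.4 with Dex+CCL1, 451 and 211 with Dex, 722 and 296 with IL-9, 333 and 185 with CCL1 and 436 and 279 in unstimulated cells. Number 1 exceeded number 2 in each of the 6 groups. Kif11, the motor that pushes spindle poles apart, had 311 and 202 with Dex+IL-9, 252 and 191 with Dex+CCL1, 305 and 160.4 with Dex, 252 and 173 with IL-9, 266 and 144 with CCL1 and 228 and 183.5 in unstimulated cells. It too was higher in number 1 in each group. The chromosome-arm motors Kif22 and Kif4 and the microtubule depolymerase Kif2c ranged over 384 to 689, 96.6 to 146 and 142 to 217.

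Of the central spindle and cytokinesis genes, Racgap1, a subunit of centralspindlin, had 409.6 and 370.5 with Dex+IL-9, 371 and 303 with Dex+CCL1, 404 and 453 with Dex, 377 and 361 with IL-9, 396 and 362 with CCL1 and 370.6 and 373 in unstimulated cells. Dex 2 was highest and Dex+CCL1 2 lowest. Kif20a, the motor that brings the passenger complex to the midzone, had 166 and 164 with Dex+IL-9, 107 and 113 with Dex+CCL1, 154 and 171 with Dex, 169 and 147.5 with IL-9, 158 and 121 with CCL1 and 134 and 147 in unstimulated cells, with both Dex+CCL1 arrays below the other 10. Ect2, the exchange factor that activates RhoA for the cleavage furrow, had 191.5 and 89.4 with Dex and was lowest in Dex 2. Prc1, which bundles midzone microtubules, and Kif23, the motor of centralspindlin, ranged over 147 to 212 and 123.5 to 219.

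Among the genes that shape chromosomes Smc4 varied by 5.71-fold and Smc2 by 5.27-fold. Smc4, an ATPase core subunit of condensin, had 814 and 900.2 with Dex+IL-9, 409 and 531 with Dex+CCL1, 1311.5 and 229.8 with Dex, 662 and 674 with IL-9, 716 and 680.1 with CCL1 and 976 and 1234 in unstimulated cells. Dex 1 was its highest and Dex 2 its lowest array by this probe set. Its other probe sets were also lowest in Dex 2, but Dex+CCL1 1 was not low in them. They had 718 and 540 with Dex+CCL1, against 709.5 and 574.5 in unstimulated cells, and 333 and 172, against 257 and 246. Smc2, the partner of Smc4, had 589.6 and 564 with Dex+IL-9, 579 and 295 with Dex+CCL1, 549 and 112 with Dex, 496 and 445 with IL-9, 497 and 284 with CCL1 and 445 and 515 in unstimulated cells. Top2a, the topoisomerase that untangles sister chromatids, had 755 and 736 with Dex+IL-9, 752 and 608 with Dex+CCL1, 752.5 and 312 with Dex, 731 and 640.3 with IL-9, 731 and 579.9 with CCL1 and 678 and 689.6 in unstimulated cells. For Smc2 and Top2a, Dex 2 lay below all other arrays. The regulatory condensin subunits Ncapd2 and Ncaph ranged over 121 to 197 and 314 to 578, and neither was low in Dex 2.

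**Figure D2:**
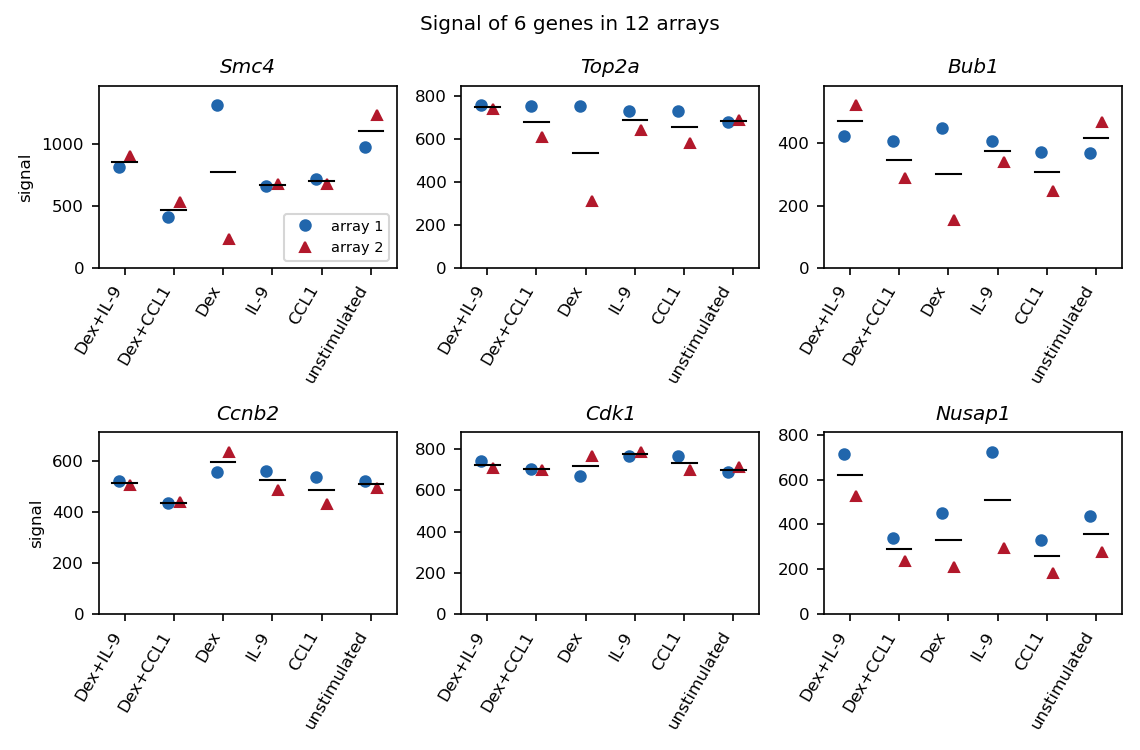
Deposited signal (linear axis from 0) of Smc4, Top2a, Bub1, Ccnb2, Cdk1 and Nusap1. Circles are array 1, triangles array 2 and lines the group means. Smc4, Top2a and Bub1 are lowest in Dex 2, Ccnb2 and Cdk1 are not, and Nusap1 is higher in array 1 of every group.

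In the array Dex 2 a subset of the mitotic genes lay far below its level in Dex 1, while the others differed from it by -0.44 to 0.40 log2. The difference Dex 2 minus Dex 1 of log2(signal + 16) was below -0.5 in 11 of 39 members, or 28.2%, against 14.4% of 13575 probe sets, and above 0.5 in 0 members, against 7.17%. These differences are of 1 pair of arrays and have no test. They were -2.43 for Smc4, -2.14 for Smc2, -1.90 for Cenpf, -1.82 for Cenpe, -1.45 for Bub1, -1.32 for Ttk and -1.23 for Top2a. Nusap1, Ect2, Plk4 and Kif11 followed at -1.04, -0.98, -0.95 and -0.86. Just outside the limit were Cdc25c at -0.44 and Mad2l1 at -0.41, and the most positive were Cdc25b at 0.40 and Ube2c at 0.39. All these are of the representing probe sets. Other probe sets of Kif22 were at 0.50 and 0.67, and others of Prc1 and Kif23 at -0.74 and -0.67. In the other groups the same difference was below -0.5 in 2 members for Dex+IL-9, against 3.49% of all probe sets, 2 for Dex+CCL1, against 8.43%, 3 for IL-9, against 4.67%, 6 for CCL1, against 5.81%, and 2 for unstimulated cells, against 6.28%. The CCL1 pair spans both array types. The median of number 2 minus number 1 over the members was -0.188 for Dex+CCL1, against -0.031 over all probe sets. For CCL1 it was -0.1145, against 0.016, for Dex+IL-9 -0.062, against 0.0085, and for IL-9 -0.059, against 0.029. For unstimulated cells it was 0.018, against 0.0056, and for Dex -0.017, against 0.032. Of the 12 arrays Dex 2 was the lowest for 11 members, of which 8 were among those below -0.5, and the highest for 12.

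**Figure D3:**
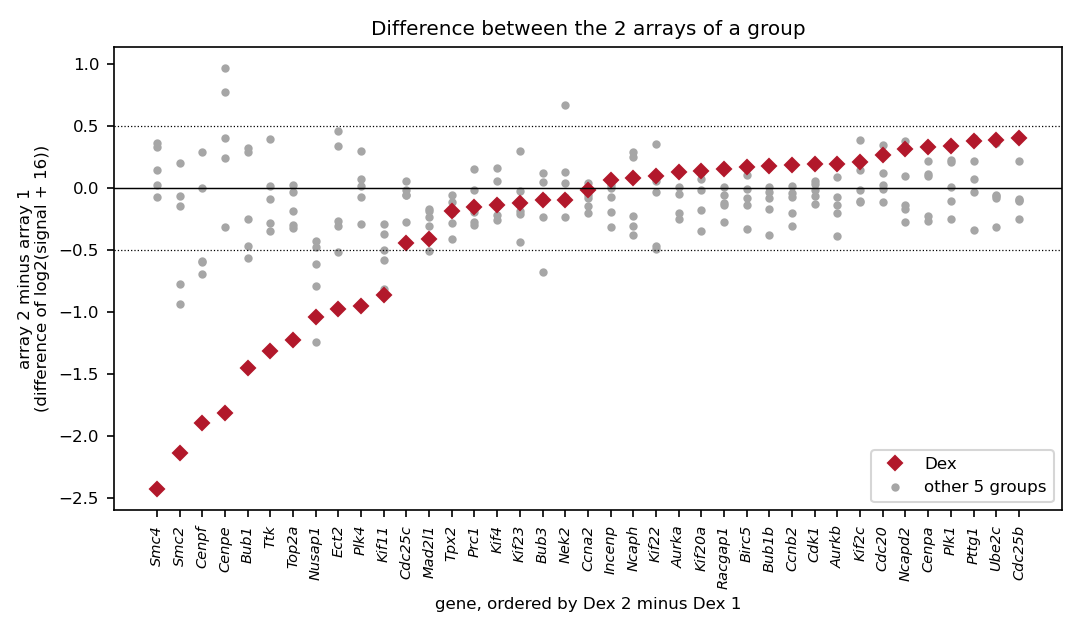
Difference between the 2 arrays of a group, array 2 minus array 1, as a difference of log2(signal + 16), for each of the 39 genes. Red diamonds are the Dex group, grey points the other 5 groups, and dotted lines mark -0.5 and 0.5. The Dex differences reach -2.43 in Smc4 on the left and 0.40 in Cdc25b on the right, and 11 lie below -0.5.

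Of the 8 roles 6 held genes on both sides of this split, and 0 cyclin or anaphase entry genes were in the low set. That set held condensin cores, Top2a, kinetochore proteins, checkpoint kinases, a centriole kinase, a spindle motor and a cytokinesis factor, whereas their known partners Ncapd2, Ncaph, Bub1b, Bub3 and Racgap1 were not in it. On a scale centred on each gene's mean, the 11 genes averaged -1.03 in Dex 2, against -0.31 in CCL1 2, -0.234 in Dex+CCL1 2 and up to 0.441 in Dex 1. The 28 other members averaged 0.139 in Dex 2. Other probe sets of the 11 genes numbered 10. Of these, 6 had signals of 109.9 or more in Dex 1, those of Kif11, Plk4 and Smc4; all 6 were lower in Dex 2, 5 of them by more than 0.5. The 4 of Bub1, Cenpf, Nusap1 and Top2a had signals of at most 17.5 in Dex 1 and are too dim to compare. The 2 others of Smc4 had 196 and 44.7 in Dex 2, against 803 and 305 in Dex 1. For Kif11 they had 65.6 and 57.3 in Dex 2, against 191 and 151 in Dex 1.

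A list of 12 other chromosome structure genes, 11 of condensin, cohesin and their regulators and Mki67, which encodes the chromosome surface protein Ki-67, averaged -0.852 in Dex 2 on the centred scale and -0.309 to 0.236 in the other arrays. Without Mki67 the 11 averaged -0.79 in Dex 2 and -0.284 to 0.216 in the others. The difference Dex 2 minus Dex 1 was below -0.5 in 10 of these 12 genes, 8 of 23 other spindle, centrosome and cytokinesis genes, 6 of 21 other kinetochore and checkpoint genes, 3 of 19 regulators of G2/M transcription and entry, 5 of 42 S phase genes and 0 of 13 genes of the anaphase-promoting complex, beside the 14.4% of all probe sets given above. The spindle list averaged -0.212 in Dex 2, its lowest array, and the S phase list -0.05, with single genes as low as -2.07 for Kif18a and -2.14 for Pola1 in Dex 2 minus Dex 1. These 2 are the lowest of their lists and were named after their values were seen. The ratio of 3′ to 5′ control probe sets, a sign of RNA integrity, was -0.356 (log2) for Gapdh in Dex 2 and -0.551 to -0.375 elsewhere, and 0.181 for beta-actin, within the 0.131 to 0.292 of the other arrays. The part of RNA quality in the pattern of Dex 2 was not tested. The motifs shown above stood in both sets: TTTGAA was in 7 of 11 promoter windows of the low genes and 18 of 24 of the other measured members, and CCAAT was in 9 of 11 and 19 of 24.

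**Figure D4:**
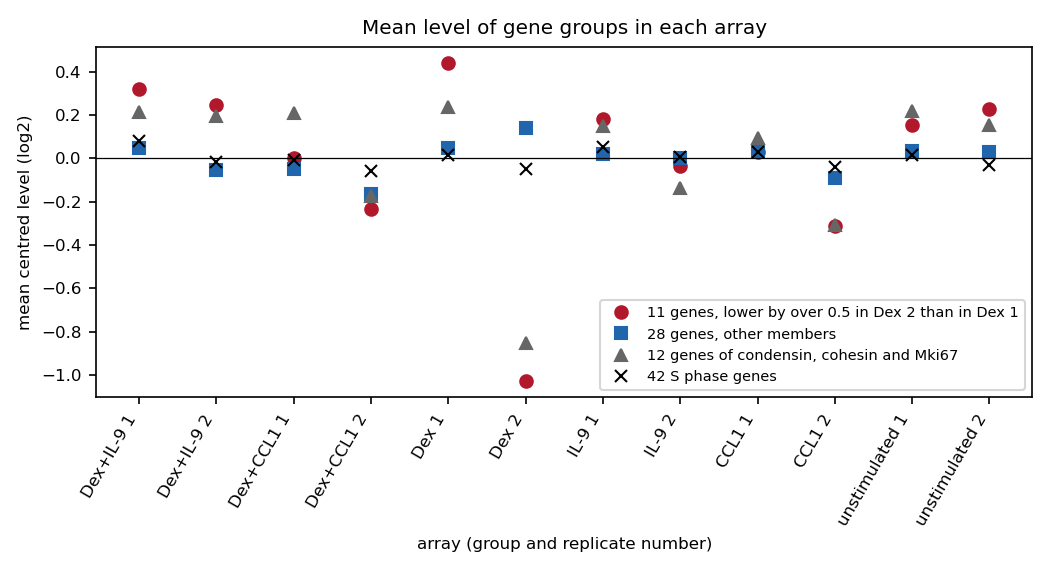
Mean level of 4 gene groups in each array, as log2(signal + 16) centred on each gene's mean. Circles are the 11 members low in Dex 2, squares the 28 other members, triangles 12 genes of condensin, cohesin and Mki67 and crosses 42 S phase genes. The circles and triangles fall to -1.03 and -0.852 in Dex 2, where the squares are at 0.139; the 11 members were picked by that difference, so their place in Dex 2 and Dex 1 is no independent result.

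The effect of Dex on the mitotic genes was asked between Dex alone and unstimulated cells. None passed: 0 of 39 members had an adjusted p under 0.05 in limma, against 0% of 13575 probe sets, and 0 members, against 2.95%, had an unadjusted p under 0.05. The median difference was 0.03, with 20 members positive, against 0.01 over all probe sets. Bub1b had the smallest p, with a signal of 484 ± 42.6 with Dex and 391 ± 15.8 in unstimulated cells (SD, n = 2 each), a log2 difference of 0.30 (SE 0.14, adjusted p = 0.995). Smc4 had 771 ± 765 with Dex and 1105 ± 183 in unstimulated cells (SD, n = 2 each), a difference of -0.96 (SE 0.54, adjusted p = 0.995), with the Dex arrays on both sides of the unstimulated ones. Smc2, Bub1 and Top2a followed at -0.88, -0.62 and -0.48 (adjusted p = 0.995 each). Both Dex arrays exceeded both unstimulated arrays in 8 members, Bub1b, Nek2, Aurkb, Aurka, Incenp, Kif20a, Ccnb2 and Racgap1, against 14.9% of all probe sets. They lay below in 1, Kif4, against 11.2%. Without Dex 2 these counts were 21 and 6, against 31.5% and 30.5%. They then rest on Dex 1 alone, the highest of the 12 arrays by the members' median centred level, at 0.130.

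The result turned on which Dex array stood for the group. With Dex 2 alone, 7 members fell past the threshold, Bub1, Cenpf, Plk4, Smc2, Smc4, Top2a and Ttk, with adjusted p from 0.000593 (Smc4) to 0.0275 (Plk4), against 3.9% of all probe sets called. With Dex 1 alone 0 members passed and the median difference was 0.09. A lone array is assumed here to vary like the other groups, so these 7 calls describe 1 array. Averaged over the cytokine conditions, 0 members passed for Dex, against 0% of all; 1 member, against 1.53%, had an unadjusted p under 0.05. This was Kif4 at -0.24 (SE 0.11, adjusted p = 0.9999), and the median was -0.05.

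Within the arrays numbered 2, where the glucocorticoid targets separated the Dex arrays from the others, 0 of 39 members passed, against 0.597% of all probe sets. These arrays were singled out because the targets separated there, so the 8 of 12 targets called higher in this contrast, against 0 of 12 for Dex versus unstimulated and 0 of 12 within the arrays numbered 1, describe that choice. At an unadjusted p under 0.05 stood 5 members, against 10.5% of all probe sets. Kif4 differed by -0.39 (SE 0.13, adjusted p = 0.319), Kif22 by -0.38, Smc2 by -0.83, Birc5 by 0.29 and Ncaph by 0.36. The median was -0.07, and 15 members were positive. With 1 array left out at a time, the adjusted p in limma ranged from 0.0459 (without Dex 2) to 0.852 for Kif22. For Smc2 it ranged from 0.0356 (without Dex+IL-9 2) to 0.929. Each gene passed under 1 of 20 settings, and the share of all probe sets passing there is not given here. A second probe set of Kif22 had 277, 150 and 170 in the number 2 arrays with Dex, Dex+IL-9 and Dex+CCL1. It had 197 and 195 in unstimulated 2 and IL-9 2, so these overlap. Within the arrays numbered 1, 0 members passed, against 0% of all, and 2, against 2.5%, had an unadjusted p under 0.05, Pttg1 at -0.33 (SE 0.11, adjusted p = 0.9998) and Ube2c at -0.26. The difference of the Dex effect between the numbers passed in 0 members, against 0.206%, and 3, against 10.1%, had an unadjusted p under 0.05: Pttg1 at 0.49, Ube2c at 0.47 and Ttk at -0.83.

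No mitotic gene passed the test in the comparisons of IL-9. Alone against unstimulated cells it gave 0 of 39 members past the threshold, against 0.0221% of all, and 1 member, against 4.89%, at an unadjusted p under 0.05. That member was Ncaph, with 353 ± 55.2 with IL-9 and 509 ± 96.9 in unstimulated cells (SD, n = 2 each), a difference of -0.51 (SE 0.18, adjusted p = 0.987). A second probe set of Ncaph did not show it, with 218 and 204 with IL-9, against 188 and 189.5 in unstimulated cells. Kif23 and Prc1 followed at -0.41 and 0.32, and the median was -0.01. Both IL-9 arrays lay above both unstimulated arrays in 6 members, against 16% of all, and below in 7, against 19.6%. Number by number, Smc4 was the only member below -0.5 in both, at -0.55 and -0.86, where 0.884% of all probe sets were. Another probe set of Smc4 had 801 and 409 with IL-9, against 709.5 and 574.5 in unstimulated cells, which overlap. The third had 228 and 145 with IL-9, against 257 and 246 in unstimulated cells, which do not overlap.

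In the presence of Dex, 0 members passed between Dex+IL-9 and Dex, against 0.0221% of all, and 3, against 5.7%, had an unadjusted p under 0.05. Smc2 had 577 ± 18.0 with Dex+IL-9 and 330.2 ± 309 with Dex (SD, n = 2 each), a difference of 1.14 (SE 0.51, adjusted p = 0.838). Nusap1 had 618 ± 132 with Dex+IL-9 and 331 ± 169.7 with Dex (SD, n = 2 each), a difference of 0.95 (SE 0.41, adjusted p = 0.838), and was above 0.5 in both numbers, at 0.64 and 1.25, as were 0.597% of all probe sets. Kif22 had 461 ± 109 with Dex+IL-9 and 667 ± 31.9 with Dex (SD, n = 2 each), a difference of -0.54 (SE 0.21, adjusted p = 0.838). Its other probe sets overlapped between these groups. They had 222 and 150 with Dex+IL-9, against 191 and 277 with Dex, and 106 and 104, against 92.5 and 157. Bub1 and Top2a followed at 0.79 and 0.60. The Dex+IL-9 arrays lay above the Dex arrays in 5 members, against 13.7% of all, and below in 9, against 20.4%. Without Dex 2 the counts were 9 and 15, against 32.2% and 37.2%, and they too rest on Dex 1 alone. With Dex 2 as the only Dex array, the same 7 genes that were low in it against unstimulated cells passed as higher with Dex+IL-9, against 4.93% of all probe sets, and both comparisons share that array. With Dex 1 as the only one, 0 passed.

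Averaged over cells with and without Dex, 0 members passed for IL-9, against 0.0958% of all, and 4, against 8.57%, had an unadjusted p under 0.05: Ncaph at -0.37 (SE 0.13, adjusted p = 0.481), Prc1 at 0.30, Kif22 at -0.37 and Nusap1 at 0.67. With Dex 2 as the only Dex array 5 members, Bub1, Plk4, Smc2, Smc4 and Top2a, passed as higher, against 2.64% of all. The interaction of IL-9 and Dex, the difference of the IL-9 effect with and without Dex, passed in 0 members, against 0% of all, with 0 members at an unadjusted p under 0.05, against 1.58%. Smc4 had the most positive interaction at 1.31 (SE 0.76, adjusted p = 1.00), and with Dex 2 as the only Dex array 6 members passed, against 2% of all.

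In Dex+CCL1 cells 27 of 39 members lay below their level with Dex alone on average, and none passed the test. Between these groups 0 of 39 members passed, against 0.00737% of all probe sets, and 5, against 6.52%, had an unadjusted p under 0.05. All 5 were lower. Bub1b had 336 ± 28.6 with Dex+CCL1 and 484 ± 42.6 with Dex (SD, n = 2 each), a difference of -0.51 (SE 0.14, adjusted p = 0.683). Kif20a had 110.1 ± 4.47 with Dex+CCL1 and 162 ± 11.99 with Dex (SD, n = 2 each), a difference of -0.50 (SE 0.16, adjusted p = 0.738). Ccnb2, Aurkb and Racgap1 differed by -0.43, -0.38 and -0.34 (adjusted p = 0.738, 0.738 and 0.748). The median of the members was -0.15, against -0.0041 over all probe sets.

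Both Dex+CCL1 arrays lay below both Dex arrays in 16 members, against 18.7% of all probe sets, and above in 0, against 13.8%. The 16 were the cyclins Ccna2 and Ccnb2, the kinases Aurka, Aurkb and Nek2, the checkpoint genes Bub3 and Bub1b, Cdc20, the passenger genes Incenp and Birc5, the motors Kif2c, Kif22 and Kif20a, Racgap1, and the condensin genes Ncapd2 and Ncaph. By the next brightest probe set, Aurkb and Ncaph also lay below, but Ccna2, Bub3, Cdc20, Incenp, Kif22, Kif2c and Racgap1 overlapped. That of Cdc20, for example, had 207 and 282 with Dex+CCL1, against 228 and 280 with Dex. The rest of the 16 had a single probe set. For 8 of the 16 Dex 2 was the highest of the 12 arrays, and 0 belonged to the 11 genes that were low in Dex 2, which can hardly meet this criterion. Without Dex 2 the counts were 27 below and 2 above, against 34.1% and 30.5%, and the median was -0.242 with 5 members positive. These values set Dex 1 alone against a group that holds Dex+CCL1 2. By the members' median centred level Dex 1 was the highest of the 12 arrays, at 0.130, and Dex+CCL1 2 the lowest, at -0.165. The larger drop is therefore no firmer result. With Dex 2 as the only Dex array, 6 members, Bub1, Cenpf, Smc2, Smc4, Top2a and Ttk, passed as higher with Dex+CCL1, against 3.91% of all. Dex+CCL1 versus Dex shares its Dex arrays with Dex versus unstimulated and with Dex+IL-9 versus Dex.

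CCL1 alone against unstimulated cells rested on 1 CCL1 array, CCL1 1, and gave 0 members, against 0% of all, with 1, against 3.29%, at an unadjusted p under 0.05. This was Ncaph at -0.65 (SE 0.23, adjusted p = 0.9997), with signals of 316 and 379.8 in the CCL1 arrays, the second of which was not in the test, and 578 and 441 in unstimulated cells. The second probe set of Ncaph had 201 and 209 in the CCL1 arrays, against 188 and 189.5 in unstimulated cells, and was not lower. The median of the members was 0.05, and -0.08 with CCL1 2 added. In number 2 alone, CCL1 2 minus unstimulated 2, 34 of 39 members were negative, against 51.6% of all probe sets, with a median of -0.188, against -0.0107; this is 1 array against 1 of another array type and has no test. In number 1 16 were negative, against 53.9%, with a median of 0.0223, against -0.0296. Averaged over Dex conditions 0 members passed, against 0.00737% of all, and 1, against 5.6%, had an unadjusted p under 0.05, Ncaph at -0.52 (SE 0.15, adjusted p = 0.53). The interaction of CCL1 and Dex passed in 0 members, against 0% of all, and 3, against 2.87%, had an unadjusted p under 0.05: Bub1b at -0.63 (SE 0.23, adjusted p = 0.997), Kif20a at -0.65 and Ccnb2 at -0.51. With Dex 2 as the only Dex array Smc4 passed, against 0.744% of all.

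**Figure D5:**
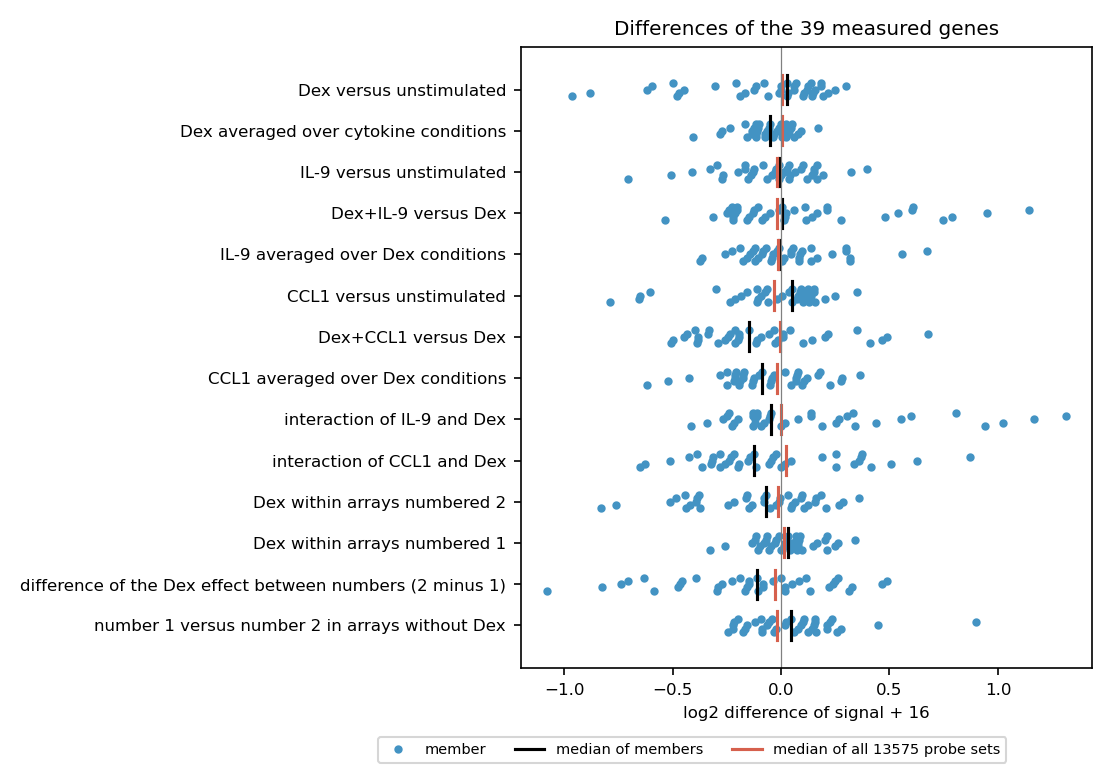
Log2 differences of signal + 16 of the 39 genes (points) in the 14 comparisons, with the median of the genes (black) and of all 13575 probe sets (red). The black line lies at -0.15 for Dex+CCL1 versus Dex and between -0.13 and 0.05 elsewhere, with single genes reaching 1.31 in the interaction of IL-9 and Dex and -1.08 in the difference of the Dex effect between numbers.

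The replicate number was compared too, since the glucocorticoid targets followed it in the arrays without Dex. Number 1 against number 2 in these arrays gave 0 members past the threshold, against 0.796% of all probe sets, and 2, against 9.17%, at an unadjusted p under 0.05. Nusap1 had signals of 722, 333 and 436 in number 1 with IL-9, with CCL1 and unstimulated, against 296, 185 and 279 in number 2. All of number 1 lay above all of number 2, and the difference was 0.90 (SE 0.20, adjusted p = 0.0695), without CCL1 2. The adjusted p ranged from 0.0133 to 0.143 over other settings and from 0.00213 to 0.708 when 1 array was left out. It passed with CCL1 2 added, with median centring, with 1 probe set per gene and without unstimulated 2 or Dex 2. The share of all probe sets passing under those settings is not given here. Kif11 differed by 0.45 (SE 0.14, adjusted p = 0.269). The same direction held for both genes in the 3 groups with Dex.

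The wider cell cycle machinery gave no calls either. Of other kinetochore and checkpoint genes 21 of 31 listed were measured, of other spindle, centrosome and cytokinesis genes 23 of 34, of the anaphase-promoting complex 13 of 15, of other chromosome structure genes (condensin, cohesin and Mki67) 12 of 16, of regulators of G2/M transcription and entry 19 of 24, and of S phase genes 42 of 46. No gene of these lists passed in any of the 14 comparisons. The 12 chromosome structure genes had a median difference of -0.58 for Dex versus unstimulated, with 10 negative, and of 0.62 for Dex+IL-9 versus Dex, with 10 positive. Both medians rest on Dex 2, which the comparisons share: without it they were 0.0412, with 3 negative, and -0.0238, with 5 positive. Without Mki67 they were -0.533 and 0.609 over all Dex arrays. The list's medians for Dex within the arrays numbered 2 and numbered 1 were -0.33 and 0.05. Stag2, a cohesin subunit, differed by -0.80 (SE 0.52, adjusted p = 0.995) for Dex versus unstimulated, and Smc3, an ATPase subunit of cohesin, by -0.80 (SE 0.43, adjusted p = 0.995). Stag2 had 388 and 76.1 with Dex and 349 and 294 in unstimulated cells, and Smc3 266 and 86.9 with Dex and 268 and 293 in unstimulated cells. Without Dex 2 the differences were 0.263 for Stag2 and -0.0717 for Smc3. Nfyb, a subunit of the CCAAT-binding factor NF-Y, differed by -0.66 (SE 0.14, adjusted p = 0.0544) for Dex within the arrays numbered 2. It was named because its difference was among the 2 largest of its list there. In the arrays numbered 1 the direction was opposite. There Nfyb had 180, 201 and 209 with Dex, Dex+IL-9 and Dex+CCL1, against 152, 139 and 179 in unstimulated cells, with IL-9 and with CCL1. Wee1, the kinase that holds Cdk1 inactive, differed by -0.58 (SE 0.20, adjusted p = 0.738) for Dex+CCL1 versus Dex, alongside the members that were lower there.

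Likeness to the members was measured as Pearson's r over the 11 arrays between each other gene and the mean centred level of the 39 members, as a description over arrays that share their treatments. That mean does not stand for every member. The r of a member with the mean of the others ran from -0.49 for Cdc25b to 0.78 for Smc4, and was also negative for Cenpa (-0.45) and Plk1 (-0.41). Without Dex 2 it ran from -0.25 for Cdc25b to 0.90 for Racgap1. Most alike were Cysltr1 (0.970), Slf1 (0.936), Iftap, Zfp51, Rbl1, Birc2, Ifih1, Zfp280d, Spc25 and Mga (0.902). Of these, Spc25 encodes a kinetochore protein. Least alike were Rac2 (-0.895), Poll, Srpr, Flna and Mettl27 (-0.873). Without Dex 2 the order changed: Galk2 (0.965) and Cysltr1 (0.960) led, and Chkb, Znrd1, Med20, Aebp2, Ncoa6, Slf1, Cdca3 and Iftap followed, so that 3 of the 10 genes were in both orders.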

How the data were processed

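The deposited values were MAS5 signal intensities on a linear scale, per the submitters' processing notes, in 2 tables of 11 arrays and 1 array; the version of MAS5 is not given in the sources used here. The authors' intensities had equal means in all arrays after trimming 2% at each end (99.98), so a shift shared by every gene is hidden. Analysis used log2(signal + 16), which understates differences of dim genes. Of 22626 probe sets other than controls, 20380 carried 1 gene symbol, 691 several and 1555 none. Those with a mean log2 above the 40th percentile (signal 6.32), 13575 in all, entered limma 3.58.1 (R 4.3.3; empirical Bayes with trend, 5 residual degrees of freedom), fitted to 11 arrays by group, and p-values were adjusted over all of them after Benjamini-Hochberg at 0.05. CCL1 alone had 1 array in that fit and borrowed its error from the rest. Comparisons by replicate number came from a second fit with a mean for each number with and without Dex plus additive IL-9 and CCL1 terms. Deviations of same-numbered arrays correlated at -0.01 to 0.307 over 10 pairs, 5 of them over 0.1, which does not exclude a shift shared by number. The group fit nevertheless left the numbers unpaired, so such a shift stays in its error. A fit with a replicate block was an alternative. Both fits were tested on simulated data. The simulated noise was independent between arrays, with 1 spread per probe set. It held no outlying array and no shift by number, so the rates recovered may differ from those for these arrays. Of changes of 1 log2, 48% were recovered for Dex versus unstimulated and 27% for CCL1 versus unstimulated. For the interactions of IL-9 and of CCL1 with Dex it was 12% and 8%, and the most was 85%, for Dex averaged over cytokine conditions. Small changes can thus be missed. Alternatives were pseudocounts of 1 and 64, median centring, quantile normalization, no trend, the 60th percentile or no filter, a replicate block, CCL1 2 added, 1 probe set per gene, the second probe set, and each array left out; non-overlap counts without single arrays, the chromosome structure list without Mki67 or Dex 2, and the split of other probe sets at a signal of 20 were added after the data were seen. Named with array values were the member of highest mean signal in each role and, per comparison, members past the threshold or else up to 5 of smallest p; other lists gave up to 2 genes per comparison, those of largest difference. Members and lists were chosen with earlier results of these data known.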

Additional observations from a re-analysis of the deposited data

How the results depend on the processing

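Among recomputed counts and medians of the members, 548 stayed within the limits for an equal value and 24 moved (a count by more than 1.5 times, or a median by more than the 0.0724 SD between replicates). The counts of members past the threshold were 0 in the main fit and under most settings, so most of them could hardly move. Of the other recomputed values, which were non-overlap counts without single arrays and second probe sets, 10 stayed and 22 moved. With each array left out in turn, the number of members past the threshold was 0 to 7 for Dex versus unstimulated, 0 to 7 for Dex+IL-9 versus Dex, 0 to 5 for IL-9 averaged over Dex conditions, 0 to 6 for Dex+CCL1 versus Dex, 0 to 6 for the interaction of IL-9 and Dex, 0 to 1 for that of CCL1 and Dex, 0 to 1 for Dex within arrays numbered 2 and 0 to 1 for number 1 versus number 2 without Dex. The highest counts of the 6 group comparisons were those without Dex 1, where Dex 2 stood alone. Medians ranged from -0.0935 to 0.0471 for Dex+IL-9 versus Dex, -0.242 to -0.0832 for Dex+CCL1 versus Dex, -0.0792 to 0.0437 for the interaction of IL-9 and Dex, -0.221 to -0.0109 for that of CCL1 and Dex and 0.0101 to 0.142 for number 1 versus number 2. Under other settings the median for CCL1 versus unstimulated was 0.156 with median centring, -0.077 with CCL1 2 added and -0.0497 with the replicate block, and for the interaction of CCL1 and Dex -0.27 with median centring and -0.0248 with CCL1 2 added. The replicate block gave 0 members past the threshold in every comparison of groups. Nusap1 was the 1 member past the threshold for number 1 versus number 2 with median centring, with CCL1 2 added and with 1 probe set per gene. The causes were not tested. The second probe set of a gene gave Dex 2 minus Dex 1 differences of -1.34 for Kif11, -1.95 for Smc4, -0.68 for Plk4, -0.69 for Bub1, -0.24 for Cenpf, -0.42 for Nusap1 and 0.23 for Top2a, those of Bub1, Cenpf, Nusap1 and Top2a being dim. It gave -0.74 for Prc1 and -0.67 for Kif23, against -0.15 and -0.12 by their brighter probe sets. For Kif22 it gave 0.50, against 0.095, and for Tpx2 0.26, against -0.19. The number of arrays and dim probe sets limit the precision.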
